A study of Rattus norvegicus with 2 samples.

Results

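The genes described here are the amino acid transporters of the rat kidney, taken as the non-control probes whose accession maps to a RefSeq symbol starting with Slc1a, Slc3a, Slc6a, Slc7a, Slc36a, Slc38a or Slc43a. This choice used no measured value. It gave 55 genes read by 67 probes, of 13435 named genes on the array. Of 69 RefSeq genes with these prefixes, the other 14, among them Slc1a1, Slc6a19 and Slc7a1, are not analysed here. One of the 55, Slc7a6os, carries the prefix as the opposite-strand neighbour of Slc7a6 and is not itself a transporter.

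The animals were female PCK rats, whose Pkhd1 mutation gives them cystic kidneys like those of human autosomal recessive polycystic disease. Pioglitazone, which activates the nuclear receptor PPAR-gamma, was gavaged daily to one group at 10 mg/kg and 0.5% DMSO to the vehicle group, starting at 4 weeks of age and ending at 20 weeks. Kidney RNA of a group was combined and run on 1 one-colour array, so both groups share the PCK genotype and the sex, and no difference has a replicate check. The labels give 5 pooled females in one place and 3 rats in another. Normal rats named in the treatment text are not analysed here.

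Amino acids filtered at the glomerulus are taken back in the proximal tubule. Apical carriers in the brush border move them from the urine into the cell, and basolateral carriers pass them on to the blood. Several of these carriers are pairs of a heavy chain, Slc3a1 (rBAT) at the apical side or Slc3a2 (4F2hc) at the basolateral side, with a light chain of the Slc7a family that does the transport. Other members serve other tasks: the Slc6a family also holds carriers of neurotransmitters, creatine and osmolytes, and the Slc38a family carries glutamine and other small neutral amino acids.

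Of the 55 genes, 40 were measured, which means that a probe was well above background and not saturated on both arrays. Slc7a3 was above background with pioglitazone alone, and 14 genes were above background on neither array. The vehicle array had 31127 of 43379 spots (71.8%) well above background and the pioglitazone array 31728 (73.1%). All values below are log2 differences of signal, pioglitazone minus vehicle, scaled to the 75th percentile of each array, with 0.08 taken off as the shift between arrays. Each member probe was printed as 1 spot. The technical error given with a difference comes from the scanner software's error of both spots, lies between 0.20 and 0.38 for the members, and holds no spread between animals. Probes printed as 10 spots gave a smaller figure: the SD of the difference over the 10 spots had a median of 0.056 for signals above 1000 and of 0.20 for signals below 50. Signals are in the scanner's units and cannot be compared between genes, since probes differ. In these bulk pools fewer cells of a type and less RNA per cell cannot be told apart.

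The transporters as a whole sat slightly to the positive side. Of 40 measured genes 26 had a difference above 0, where 56.1% of all 10481 measured genes did, and their median was 0.10 against 0.026 for all measured genes. At 1.2-fold, 6 members were higher and 6 lower. Of all measured genes 8.21% were higher and 11.1% lower by 1.2-fold, beside 15% of the 40 members each way. Other settings shifted that split, for the members and for all genes. It was 8 and 4 with median scaling, where 13.2% of all genes were higher and 8.24% lower, and 9 and 4 without scaling, where 17.4% and 6.96% were. It was 4 and 6 with the percentile of detected probes (7.32% and 11.9% of all genes), 4 and 5 with quantile scaling (8.91% and 10.5%) and 4 and 5 with cyclic loess (8.11% and 11.3%). With normexp background correction it was 3 and 2 (3.37% and 6.0%), so the members' share of lower genes, 5%, was then below that of all genes. At 1.5-fold, 1 member was higher, Slc6a21, and 1 lower, Slc7a10, where 0.84% and 1.88% of all measured genes were. Beyond 2 times the technical error lay Slc6a21 as higher and Slc6a6 and Slc38a1 as lower, where 1.77% of all measured genes were higher and 3.85% lower by that rule.

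**Figure D1:**
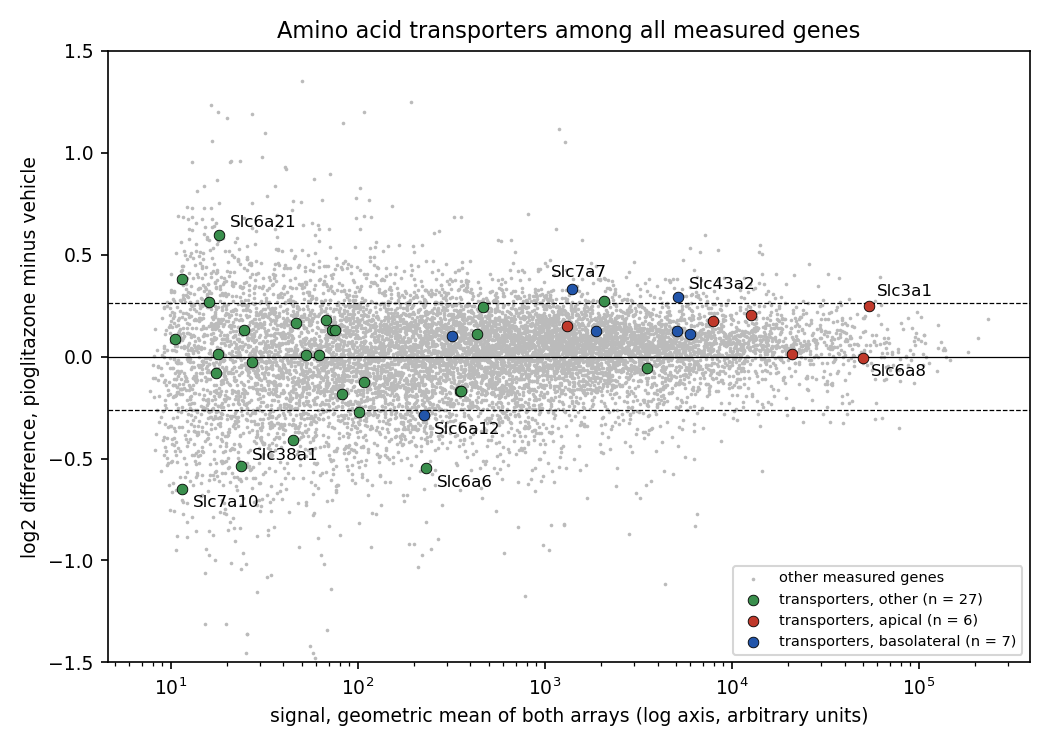
Log2 difference, pioglitazone minus vehicle, against the geometric mean signal of both arrays (log axis) for all measured genes (grey) and the 40 measured transporters, coloured by membrane side. Dashed lines mark 1.2-fold, and 14 genes lie outside the plotted range. The apical and most basolateral transporters lie at or just above 0 in the bright part, and of the 4 members furthest from 0 (Slc7a10, Slc6a21, Slc6a6 and Slc38a1) only Slc6a6 has signals above 50 on both arrays.

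The bright members leaned to the positive side. Of 13 members with signals above 1000, 11 were above 0 and the median was 0.15. Of these 13, 3 were 1.2-fold higher and 0 lower, where 4.76% of all 3656 genes this bright were higher and 3.75% lower. The median of all genes this bright was 0.050 and 66.1% of them were above 0, so bright genes in general also sat to the positive side. Among 15 members with signals from 50 to 1000 the median was 0.0061 with 0 higher and 3 lower at 1.2-fold, where 7.96% of all genes in that range were higher and 12% lower. Among 12 members below 50 the median was 0.050 with 3 higher and 3 lower, where 15.2% and 22.4% of all genes were.

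At the apical side, 5 of 6 measured carriers had differences above 0, with a median of 0.16, and none reached 1.2-fold. All 6 had signals above 1000, a range in which 66.1% of all genes were above 0, with a median of 0.050. Slc3a1, the rBAT heavy chain whose loss causes cystinuria, gave signals of 48100 on the vehicle array and 60400 on the pioglitazone array, a difference of 0.25 (technical error 0.20). Its light chain Slc7a9 (b0,+AT), the other cystinuria gene, gave 20200 and 21600, a difference of 0.014 (technical error 0.20) whose sign changed between scalings. Each rests on 1 spot per array, and whether the pair differ from each other was not tested. Slc7a13 (AGT1), an aspartate and glutamate carrier that pairs with rBAT in the straight part of the proximal tubule, gave 11400 and 13900, a difference of 0.20 (technical error 0.20).

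The apical members of the Slc6a family were small positive or at 0. Slc6a18 (B0AT3), a neutral amino acid carrier, gave 7240 and 8640, a difference of 0.17 (technical error 0.20). Slc6a20a, an imino acid carrier of proline, gave 1210 and 1420, a difference of 0.15 (technical error 0.20). Both lie above the spread of replicate spots and within the technical error. The creatine carrier Slc6a8 gave 48800 and 51500 on its brighter probe, a difference of -0.0048 (technical error 0.20), and 4790 and 5480 on its dimmer one, a difference of 0.11. The probes of Slc6a8 thus disagreed in sign, and its sign also changed between scalings. Slc36a2 (PAT2), a proton-coupled carrier of glycine and proline, was not well above background on either array, with 8.52 and 1.88, and has no fold.

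At the basolateral side, 6 of 7 measured carriers had differences above 0, where 56.1% of all measured genes did, with a median of 0.12. Slc3a2, Slc7a7, Slc7a8, Slc43a2 and Slc6a13 had signals above 1000, a range in which 66.1% of all genes were above 0, with a median of 0.050. At 1.2-fold 2 were higher and 1 lower, where 8.21% and 11.1% of all measured genes were. Slc7a7 (y+LAT1), the light chain that passes dibasic amino acids to the blood and is mutated in lysinuric protein intolerance, gave 1210 and 1610, a difference of 0.33 (technical error 0.20). Slc43a2 (LAT4), a uniporter of branched-chain and other large neutral amino acids, gave 4520 and 5860, a difference of 0.29 (technical error 0.20). The other 2 probes of Slc43a2 gave 828 and 1100 (0.33) and 281 and 366 (0.30), so its probes, in different bands of the array, differed by less than the spread of replicate spots. Slc7a7 rests on 1 spot of 1 probe. Slc7a7 and Slc43a2 had the largest positive differences of the 13 apical and basolateral genes under the reported setting.

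The remaining basolateral carriers stayed within 0.13 of 0 on the positive side, except for Slc6a12. The 4F2hc heavy chain Slc3a2 gave 5610 and 6410, a difference of 0.11 (technical error 0.20). Its light chain Slc7a8 (LAT2), an exchanger of neutral amino acids, gave 4730 and 5460, a difference of 0.12 (technical error 0.20). Slc7a7 is a further light chain of Slc3a2, and whether these 3 genes differ from each other was not tested. Slc6a13 (GAT2), a carrier of GABA and taurine, gave 1740 and 2010, a difference of 0.13 (technical error 0.20). Slc38a3 (SNAT3), which brings in glutamine for ammonia production, gave 298 and 338, a difference of 0.099 (technical error 0.20). Slc6a12 (BGT1), which takes up betaine as an osmolyte in medullary cells, went the other way, with 242 and 210, a difference of -0.29 (technical error 0.20).

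**Figure D2:**
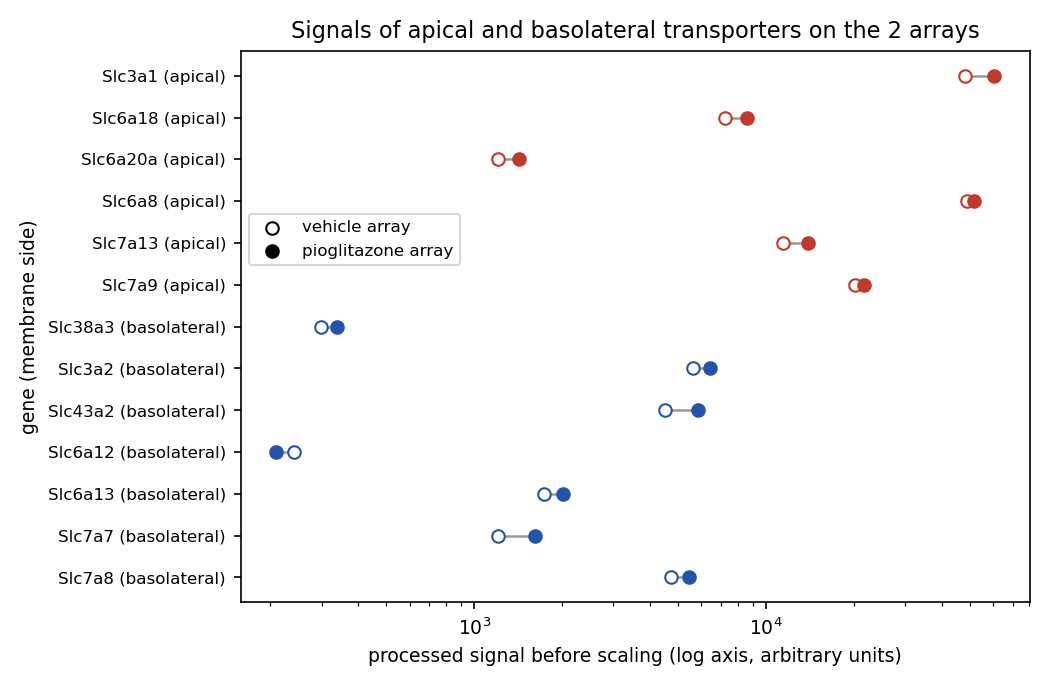
Processed signal before scaling (log axis, arbitrary units) of the 13 measured apical (red) and basolateral (blue) transporters on the vehicle array (open circles) and the pioglitazone array (filled circles). Signals were higher on the pioglitazone array for every gene shown except Slc6a12; the arrays differ by 0.08 on the log2 scale before scaling, and positions of different genes cannot be compared.

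The bases upstream of the start are shown for the cystine carrier pair, for the basolateral genes with the largest differences and for Slc6a6, the member with signals above 50 that lay furthest below 0. They come from RefSeq, build GRCr8, which lists a start for 42 of the 55 genes, and each run holds the 250 bases before the annotated start, 5′ to 3′ on the gene's strand, with motif matches in capitals. The motifs searched, on both strands, were AGGTCA (the core of nuclear receptor sites), the DR1 element bound by PPAR with RXR (AGGTCA repeated after 1 base, so that it contains the former), CAAAGTCCA (an HNF4 site), the HNF1 consensus and TGATGNAA (the core bound by ATF4).
Slc3a1 (chr6:15394750-15394999, minus strand): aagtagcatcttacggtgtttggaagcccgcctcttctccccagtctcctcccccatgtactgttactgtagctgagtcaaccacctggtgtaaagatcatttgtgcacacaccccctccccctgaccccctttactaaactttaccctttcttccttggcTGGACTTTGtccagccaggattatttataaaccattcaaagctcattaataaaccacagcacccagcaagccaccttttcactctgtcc
Slc7a9 (chr1:97246632-97246881, plus strand): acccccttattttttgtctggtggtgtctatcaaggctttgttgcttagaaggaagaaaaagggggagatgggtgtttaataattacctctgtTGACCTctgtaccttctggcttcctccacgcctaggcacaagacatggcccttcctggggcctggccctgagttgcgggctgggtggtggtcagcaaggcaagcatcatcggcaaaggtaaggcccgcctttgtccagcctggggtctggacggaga
Slc7a7 (chr15:31835684-31835933, minus strand): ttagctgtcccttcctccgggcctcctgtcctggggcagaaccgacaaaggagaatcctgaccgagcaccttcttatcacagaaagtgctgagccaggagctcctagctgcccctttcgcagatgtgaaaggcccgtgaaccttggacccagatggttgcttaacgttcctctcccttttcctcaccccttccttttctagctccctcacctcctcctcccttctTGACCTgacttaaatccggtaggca
Slc43a2 (chr10:60874588-60874837, plus strand): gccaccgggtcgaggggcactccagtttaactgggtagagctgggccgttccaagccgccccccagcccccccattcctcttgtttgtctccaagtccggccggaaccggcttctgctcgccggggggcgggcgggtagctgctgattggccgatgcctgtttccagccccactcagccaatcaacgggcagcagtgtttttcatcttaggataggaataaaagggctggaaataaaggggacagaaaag
Slc6a6 (chr4:125752252-125752501, plus strand): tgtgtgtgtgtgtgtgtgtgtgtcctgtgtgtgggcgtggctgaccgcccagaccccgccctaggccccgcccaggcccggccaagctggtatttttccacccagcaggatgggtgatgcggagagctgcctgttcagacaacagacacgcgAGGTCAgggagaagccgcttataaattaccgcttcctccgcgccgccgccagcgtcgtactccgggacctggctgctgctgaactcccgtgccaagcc

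The capitals in Slc3a1 mark the HNF4 letters on the opposite strand, 81 to 89 bases before the start. Of all 33469 upstream stretches of this length 0.338% hold them, and of the 42 members 1 does, Slc3a1. The capitals in Slc7a9, Slc7a7 and Slc6a6 mark AGGTCA or its complement, which 14.1% of all stretches and 7 of 42 members hold. It occurs in members on either side of 0, at 20 to 25 bases before the start of Slc7a7 and at 93 to 98 bases before that of Slc6a6. The DR1 letters are in 0.0508% of all stretches and in 0 of 42 members. The ATF4 core is in 3.40% of all stretches and in 2 of 42 members, Slc1a4 and Slc38a1, and the HNF1 letters are in 0.105% and in Slc7a15. No match was found in Slc43a2. A match is a description of letters in this window.

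The 41 remaining members were on neither the apical nor the basolateral list. Among them are carriers whose side is not settled or differs between cell types, and also Slc7a6os and the lysosomal and vesicular carriers named below. The median of this class was 0.010 over 27 measured genes. At 1.2-fold 4 were higher and 5 lower, where 8.21% and 11.1% of all measured genes were. In the Slc6a family the taurine carrier Slc6a6 (TauT), which supplies an osmolyte to medullary cells, gave 273 on the vehicle array and 198 on the pioglitazone array, a difference of -0.55 (technical error 0.20). This is 2.67 times its technical error. Slc6a21 gave 14.3 and 22.9, a difference of 0.60 (technical error 0.28), from a dim spot. Slc6a17, a vesicular carrier of neutral amino acids known from neurons, gave 417 and 523, a difference of 0.24 (technical error 0.20).

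The carriers of this family best known from nerve cells had low signals or were unmeasured. The serotonin carrier Slc6a4 gave 84.8 and 79.0 on one probe (-0.18) and 56.7 and 49.3 on the other (-0.28). The noradrenaline carrier Slc6a2 was near the lower limit, with 9.97 and 11.2 (0.085), the glycine carrier Slc6a9 gave 17.4 on both arrays (-0.082 after scaling), and the GABA carrier Slc6a11 gave 42.7 and 50.7 (0.17). Slc6a5, Slc6a7, Slc6a14 and Slc6a15 were above background on neither array, with signals between 1.42 and 2.39. The family median over 12 measured genes was 0.11. At 1.2-fold 1 gene was higher and 2 lower, where 8.21% and 11.1% of all measured genes were.

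In the Slc7a family, 9 of 10 measured genes had differences above 0, where 56.1% of all measured genes did, with a median of 0.13. Of these 9, Slc7a9, Slc7a15 and Slc7a6os were below 0 under some other settings. Beside the apical and basolateral light chains above, Slc7a15 gave 14.1 and 18 (0.27, technical error 0.32), Slc7a4 61.8 and 74.1 (0.18), and Slc7a3l1 69.8 and 81.0 (0.13). Slc7a5 (LAT1), the light chain of proliferating cells, was dim and level, with 17.3 and 18.5 (0.014, technical error 0.28). The exception was Slc7a10 (Asc-1), a small neutral amino acid exchanger also known from white fat cells, which gave 14.0 and 9.46, a difference of -0.65 (technical error 0.38). Of the adipocyte markers Adipoq, Cfd, Retn and Ucp1, 4 of 4 measured were below 0 with a median of -1.48, where 56.1% of all measured genes were above 0. They ranged from -2.27 (Retn) to -0.097 (Adipoq), and their summed signal was 2548 with vehicle and 1504 with pioglitazone. Plin1 is not analysed here, and the part of adipocyte content in the Slc7a10 value was not tested.

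The cationic carrier Slc7a3 was well above background with pioglitazone alone, with signals of 7.33 and 10.3. The bound from these signals was 1.27-fold higher there. It leaves out the technical error of 0.45, which is larger than the probe's difference of 0.41, so no least fold is settled. For this bound the vehicle side was put at the lowest signal well above background on that array (7.66) or the probe's own, whichever was higher. Slc7a2, the cystine and glutamate exchanger Slc7a11 (xCT), Slc7a6 and Slc7a14 were above background on neither array. Slc7a6os had probes that disagreed: 404 and 462 (0.11), 22.4 and 25.8 (0.12), and 14.9 and 10.8 (-0.55). The negative value came from its dimmest probe.

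In the Slc38a family 5 of 7 measured genes were below 0, with a median of -0.17, where 56.1% of all measured genes were above 0. At 1.2-fold 3 were lower and 0 higher, where 11.1% and 8.21% of all measured genes were. Slc38a2 and Slc38a9 changed sign under some other settings. Slc38a1 (SNAT1), a sodium-coupled glutamine carrier, gave 27.8 and 20.3, a difference of -0.54 (technical error 0.26). Slc38a4 gave 50.5 and 40.3, a difference of -0.41 (technical error 0.23). Slc38a6 gave 108 and 94.8 on its brightest probe (-0.27, technical error 0.21), while its other 2 probes gave -0.030 and -0.053. These 3 genes were dim to moderate in signal. By geometric mean of both arrays, Slc38a1 and Slc38a4 were below 50, where 22.4% of all genes were 1.2-fold lower. Slc38a6 was between 50 and 1000, where 12% of all genes were.

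Slc38a2 (SNAT2), the system A carrier that cells raise under amino acid shortage and hypertonic stress, had the brightest probe of this family and was close to level on it, with 3490 and 3560, a difference of -0.054 (technical error 0.20). Its second probe gave 196 and 139, a difference of -0.58 (technical error 0.20). The probes had the same sign but differed by more than the spread of replicate spots, and the sign of the brighter one changed without scaling. The lysosomal members Slc38a7, with 365 and 344 (-0.17), and Slc38a9, an arginine sensor for mTORC1, with 67.4 and 78.0 (0.13), both lay within their technical errors (0.20 and 0.21), and Slc38a9 came to -0.029 with normexp. Slc38a5 was above background on neither array.

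**Figure D3:**
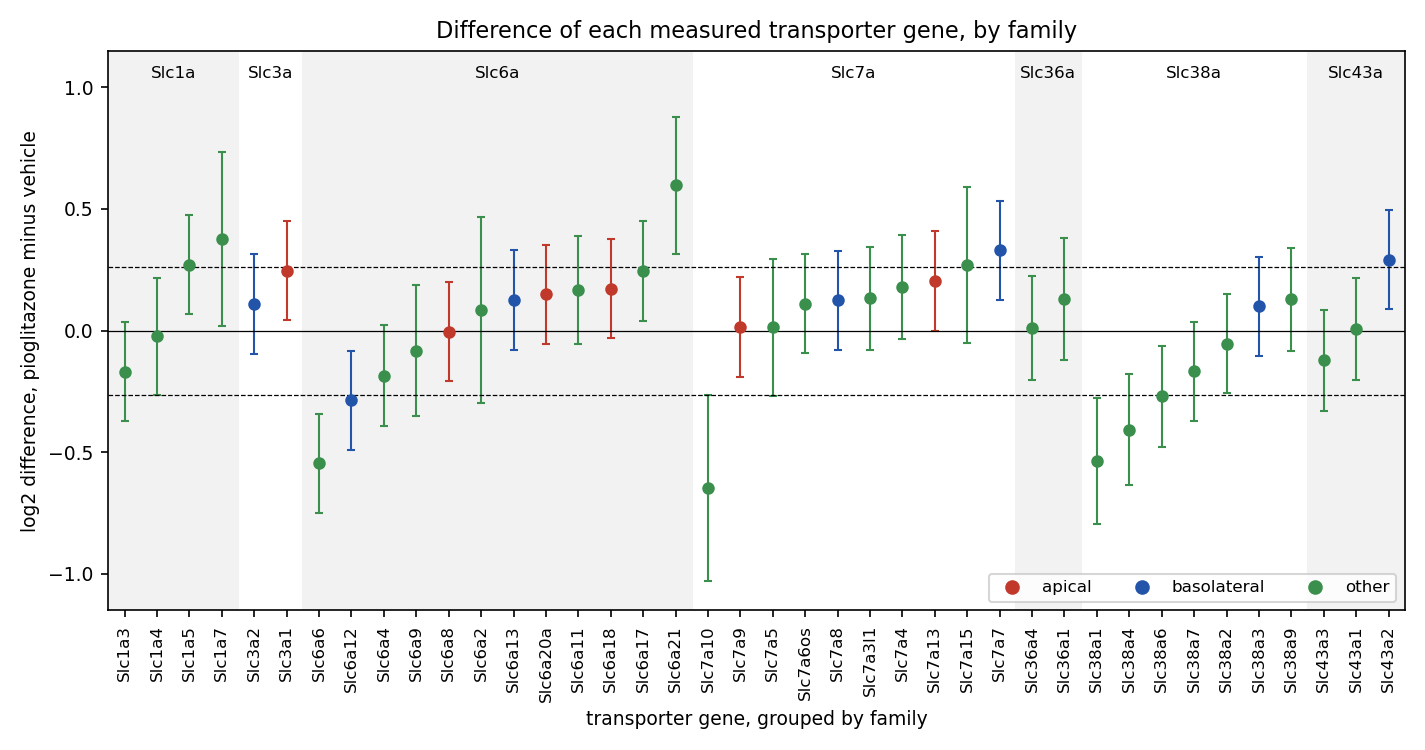
Log2 difference, pioglitazone minus vehicle, of the 40 measured transporters grouped by family. Bars show the technical error of both spots, not a spread between animals, and dashed lines mark 1.2-fold. Of 10 Slc7a genes 9 lie above 0 and of 7 Slc38a genes 5 lie below it. Of these, Slc7a9, Slc7a15, Slc7a6os and Slc38a2 changed sign under some other settings. Of all measured genes 56.1% lie above 0.

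The smaller families gave few further differences. In the Slc1a family, Slc1a5 (ASCT2), an exchanger of glutamine and other neutral amino acids, gave 1840 and 2350, a difference of 0.27 (technical error 0.20). Slc1a7 gave 9.81 and 13.5, a difference of 0.38 (technical error 0.36), from a spot near the lower limit. The glutamate carrier Slc1a3 gave 362 and 341 (-0.17) on one probe and 64.1 and 59.3 (-0.19) on the other, and Slc1a4 gave 26.7 and 27.8 (-0.024). Slc1a2 and Slc1a6 were above background on neither array.

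Of the proton-coupled Slc36a family, Slc36a1 gave 22.9 and 26.5 (0.13) and Slc36a4 51.3 and 54.7 (0.010), and Slc36a3 was above background on neither array. In the Slc43a family, Slc43a1 (LAT3), known from podocytes, gave 60.0 and 63.8 (0.0061) and the purine carrier Slc43a3 109 and 106 (-0.12). Slc43a2 thus stood alone in its family past 1.2-fold.

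Further genes of amino acid handling were taken from a list written by hand. It holds other carriers, their partners and the brush border peptidases, and 19 of its 27 genes were measured, with a median of 0.16. At 1.2-fold 4 were higher and 0 lower, where 8.21% and 11.1% of all measured genes were. The 4 higher genes were the peptide carrier Slc15a1 (855 and 1230, 0.44), the mitochondrial carriers Slc25a44 (19.5 and 25.4, 0.30) and Slc25a38 (2600 and 3320, 0.27), and Ggt1, which splits glutathione at the brush border (33300 and 42500, 0.27). Slc25a44 was dim (technical error 0.28) and came to 0.094 with normexp background correction. Collectrin (Cltrn), which Slc6a18 and its relatives need to reach the brush border, was at 0.24. The basolateral aromatic amino acid carrier Slc16a10 was at -0.017.

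A list of amino acid sensing genes and ATF4 targets had 30 of 36 genes measured, with a median of 0.096. At 1.2-fold 6 were higher and 3 lower, where 8.21% and 11.1% of all measured genes were. The higher ones included the proline enzyme Pycr1 (14.5 and 23.1, 0.59), the arginine sensor Castor1 (133 and 206, 0.55), the serine enzyme Psat1 (54.7 and 78.8, 0.44) and Chac1 (113 and 155, 0.37). Pycr1 came to -0.0078 with normexp background correction. The lower ones were Ddit4 (272 and 221, -0.38), Atf3 (1050 and 858, -0.37) and Castor2 (197 and 172, -0.28). Over the settings Castor2 ranged from -0.29 to -0.0057. Atf4 itself was at 0.079 and Asns, which makes asparagine, at 0.23. Of the 30 measured genes 24 were above 0 and 6 below, where 56.1% of all measured genes were above 0.

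Markers of the proximal tubule differed by amounts like those of the carriers. Of 10 proximal tubule markers 9 were measured and 9 were above 0, with a median of 0.14 and a range from 0.028 (Lrp2) to 0.25 (Slc22a8). All 9 had signals above 1000, a range in which 66.1% of all genes were above 0, with a median of 0.050. Lrp2 and Slc34a1 were below 0 under some other settings, and none of the 9 was 1.2-fold higher, and their summed signal was 274702 with vehicle and 313442 with pioglitazone. Markers of the straight part of the proximal tubule were at 0.33 (Slc5a1), 0.30 (Slc17a3) and 0.13 (Acy3). The apical median of 0.16 and the basolateral median of 0.12 thus lay near the proximal tubule median, and the part of tubule content in them was not tested.

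Markers of other cell types differed as well. Macrophage markers, of interest because macrophages also carry Slc7a7, were below 0 in 6 of 6 measured genes of 7, with a median of -0.38 and summed signals of 10824 with vehicle and 8955 with pioglitazone, while Slc7a7 was at 0.33. Cd163 was above background on neither array. Lymphocyte markers were below 0 in 4 of 4 measured genes with a median of -0.42. Beside both lists, 56.1% of all measured genes were above 0, with a median of 0.026. Podocyte markers had a median of 0.22 over 4 genes, beside 0.0061 for the podocyte carrier Slc43a1. Among principal cell markers, Aqp2 was at -0.34 and Aqp3 at -0.29, beside the medullary carriers Slc6a6 and Slc6a12, while Scnn1g and Hsd11b2 were both at 0.19. The medians of the remaining marker lists were -0.024 for the thick ascending limb, 0.20 for intercalated cells and -0.33 for urothelium. The adrenal and sympathetic list had a median of 0.093 over 3 measured genes of 6, with Th below 0 under normexp, and its steroid enzyme Cyp11b1 was well above background with vehicle alone (28.9 and 1.42). The part of cell content in these values was not tested.

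**Figure D4:**
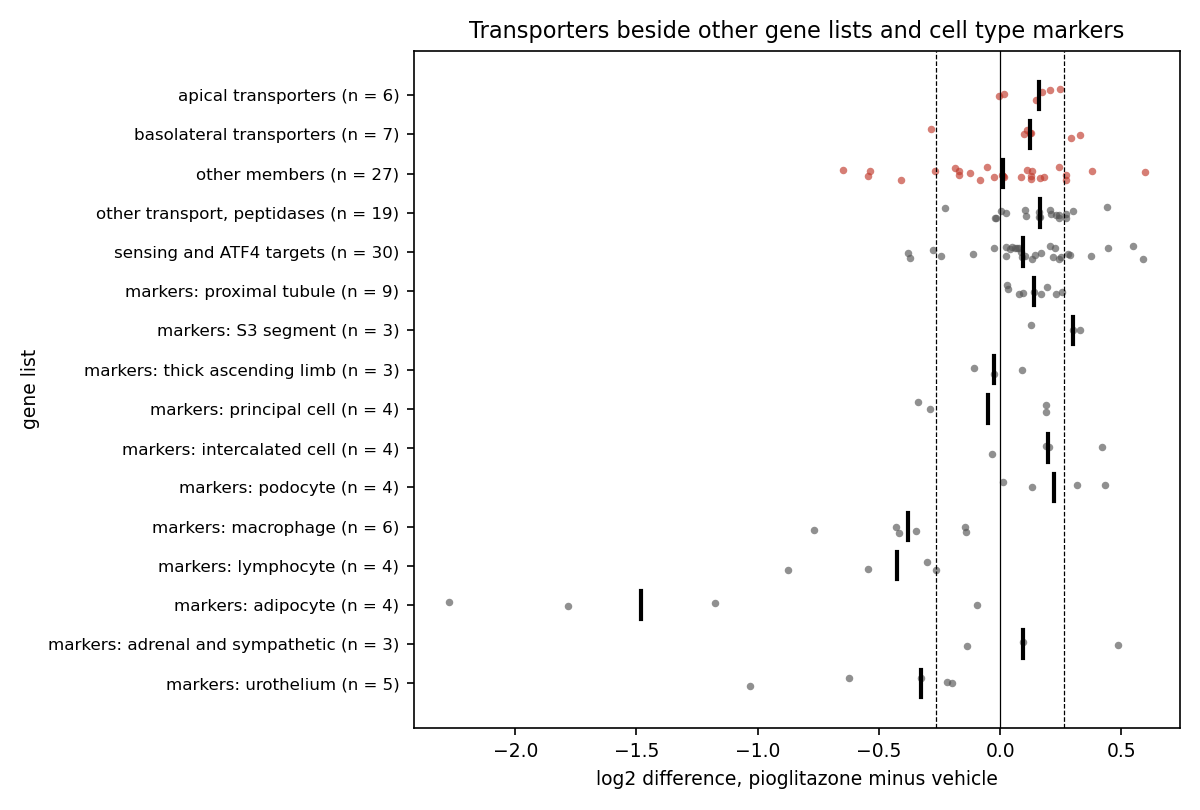
Log2 differences of the members by membrane side (red) and of the further gene lists and cell type markers (grey), with each list's median as a black bar and 1.2-fold as dashed lines; vertical scatter is for display. Apical and basolateral transporters and proximal tubule markers have medians from 0.12 to 0.16, macrophage and lymphocyte markers -0.38 and -0.42.

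Settings bear on some of these values, and array position was looked at as well. Of the 40 measured members 8 were read from spots in the middle of the array (the sixth and seventh of 10 bands), left out as an alternative; they include Slc3a2, Slc6a12, Slc6a18, Slc43a2 and Slc1a7. Of all 2107 measured genes there, 167 were higher and 243 lower by 1.2-fold, beside 8.21% and 11.1% of measured genes on the whole array. Their median was 0.021, beside 0.026 for all measured genes. Leaving these rows out changed the sign of 0 of 33 members. Without these rows Slc43a2 was read from its probe elsewhere, at the value given above. Normexp background correction, which adds an offset to all signals, brought several dim genes past 1.2-fold closer to 0: Slc6a21 came to 0.12, Slc38a1 to -0.24, Slc38a4 to -0.15 and Slc7a10 to -0.19. It moved others away from 0, such as Slc6a9 (-0.19) and Slc1a4 (-0.11). It changed the sign of 7 members: Slc1a7 and Slc7a15, both past 1.2-fold as reported, came to -0.069 each, Slc36a1 to -0.071, Slc38a9 to -0.029, Slc6a2 to -0.016, Slc43a1 to -0.052 and Slc36a4 to -0.020. The bright genes Slc7a7 (0.30 to 0.41) and Slc43a2 (0.25 to 0.37) and the carrier Slc6a6 (-0.56 to -0.39) stayed on their side of 0 under every setting that gave them a value.

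**Figure D5:**
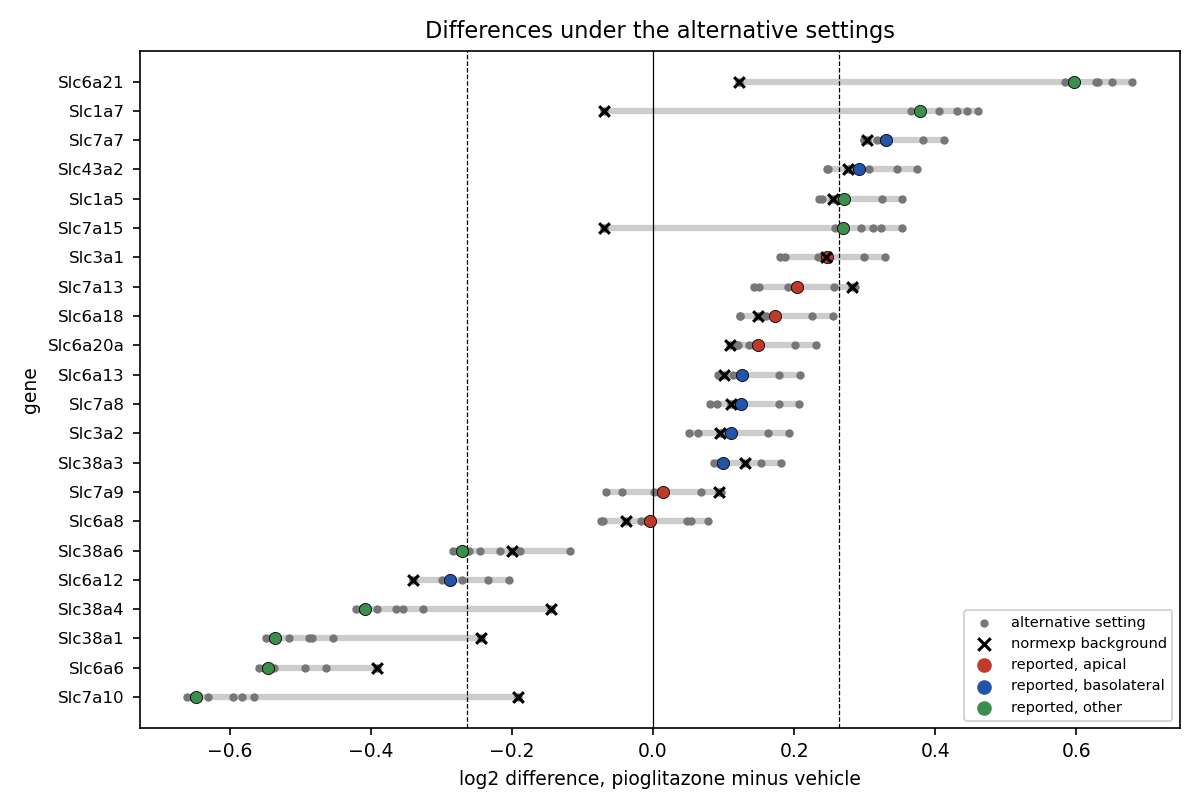
Log2 difference, pioglitazone minus vehicle, of the apical and basolateral transporters and of all members past 1.2-fold: reported value (coloured circles), 11 alternative settings where they gave a value (grey dots) and, among these, normexp background correction (crosses). Dashed lines mark 1.2-fold; Slc7a7, Slc43a2 and Slc6a6 keep their side, while Slc1a7 and Slc7a15 cross 0 with normexp.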

How the data were processed

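Each of 2 arrays measured pooled kidney RNA of 1 group. The deposited scanner files hold processed intensity values: the authors used Agilent Feature Extraction 10.7.3.1, per the submitters' processing notes, and per the file headers it corrected each array alone for background and spatial trend. The deposited value table is identical to them over 45018 features. The flags in the files are other values, 0 or 1 per spot, per the file headers. The files name build rn4, so no coordinates were taken from them; promoter positions are those of GRCr8.

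After 149 outlier spots were removed, log2 signals were scaled by subtracting each array's 75th percentile. Unversioned accessions, looked up among RefSeq and Ensembl identifiers, named 16959 of 40998 probes and left 24039 unnamed. A gene took its brightest probe well above background on both arrays. With 1 array per group no test was made; the number of arrays limits the precision. Counts use 1.2-fold and 1.5-fold. Membership came from symbols, while the membrane sides, the further lists and the markers were written by hand, all with earlier results of these data known. Any member could be named, though some items are not reported here; values are given for apical and basolateral genes, genes past 1.2-fold and the 2 brightest of each family, and of the further lists for up to 6 genes past 1.2-fold. Other values named were chosen after they were seen. The steps were tested on simulated data. Tools were limma 3.58.1 in R 4.3.3 and Python 3.11.15. The 11 alternatives tried are given at the end.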

Additional observations from a re-analysis of the deposited data

How the results depend on the processing

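No paired analysis was possible because there is 1 array for each group. Over 11 alternatives, 400 of 408 gene values moved by less than their technical error. Many of these values could not have moved further. Some alternatives return the same probe values, and others shift all genes alike by at most 0.08, below any technical error. The count is therefore no measure of robustness. Of the 408, 19 had the opposite sign to the reported value, over 12 members; Slc6a9 also came to 0, and 27 of 40 members had the same sign throughout. Of members past 1.2-fold, Slc1a7 and Slc7a15 changed sign, both with normexp. Without scaling, 0 members were 1.5-fold lower, and the medians were 0.19 for all members, 0.21 for Slc1a, 0.26 for Slc3a, 0.19 for Slc6a, 0.21 for Slc7a, 0.15 for Slc36a, -0.085 for Slc38a, 0.089 for Slc43a, 0.24 for the apical, 0.21 for the basolateral and 0.093 for the other genes, beside 0.11 for all measured genes; the shift of 0.08 between arrays is then left in. Cyclic loess gave 0 members 1.5-fold lower, and the percentile of detected probes 0 members 1.5-fold higher. Normexp, run on median signals with an offset of 50, gave 3 higher and 2 lower at 1.2-fold and 0 and 0 at 1.5-fold, with medians of -0.018 for all members, -0.091 for Slc1a, 0.022 for Slc6a, -0.045 for Slc36a and -0.069 for the other genes, and turned Slc1a7 and Slc7a15 to -0.069 each. Without the filter on dim probes, 2 members were higher and 4 lower at 1.5-fold, with medians of 0.010 for all members, -0.096 for Slc1a, -0.082 for Slc6a and -0.082 for the other genes. With genes above the median signal alone, 15 members were left, 3 higher and 0 lower at 1.2-fold and 0 and 0 at 1.5-fold, with medians of 0.27 for Slc1a, -0.054 for Slc38a, 0.29 for Slc43a and 0.18 for the other genes. Without the sixth and seventh bands the medians were -0.030 for Slc1a and 0.083 for Slc43a. For normexp the cause was not tested; the filters change which genes are counted. Signal over background limits the dim members, and 1 array of pooled RNA per group leaves the spread between animals unknown.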

Other observations

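The members furthest below 0 outside the dim range included carriers of organic osmolytes, the taurine carrier Slc6a6 (-0.55) and the betaine carrier Slc6a12 (-0.29). Further genes of osmolyte accumulation, chosen after these values were seen, were therefore looked up. Akr1b1, the aldose reductase that makes sorbitol, gave 556 with vehicle and 376 with pioglitazone, a difference of -0.65 (technical error 0.20). Nfat5, the transcription factor that responds to tonicity, gave 2820 and 2410 (-0.31), and the inositol carrier Slc5a3 gave 1930 and 1810 (-0.18). All 3 were below 0 under every alternative that gave them a value, from -0.66 to -0.56 for Akr1b1, from -0.35 to -0.044 for Nfat5 and from -0.23 to -0.093 for Slc5a3. Slc38a2, also raised by hypertonic stress, was at -0.054 on its brighter probe and -0.58 on its dimmer one. Most alternatives only rescale the same spots. Of these 3 genes 2 were 1.2-fold lower, where 11.1% of all measured genes were. The principal cell markers Aqp2 (-0.34) and Aqp3 (-0.29) were lower too, while Scnn1g and Hsd11b2 were both at 0.19. The part of cell content was not tested. No test was made on these genes, which share the same 2 arrays and were picked with the lower values known, so they are a description alone.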
